A study of Ovis aries with 15 samples.

Results

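Enzymes that write or erase marks on histones and DNA, with the Polycomb subunits and chromodomain proteins that bind those marks, were followed at their own promoters. Members were taken by gene name from the promoter tables of 3 histone marks: names starting with KDM, HDAC, KAT, SETD, SMYD, DNMT, PRMT, CBX, KMT2 or MLL with the number ranges of these families, SIRT1, SIRT2, SIRT4 to SIRT7, EZH1, EZH2, TET1 to TET3, JARID2, EED, SUZ12, EP300 and CREBBP. The rule used no measured value, and it found 85 of 18465 gene names. Of these, 81 were in the H3K27ac table, which holds 13222 promoters, 71 were in the H3K4me3 table, which holds 12922, and 8 were in the H3K27me3 table, which holds 6334. The label of enzyme does not hold for all of them. The 4 MLLT genes (MLLT3, MLLT6, MLLT10 and MLLT11) share the letters MLL because they are fusion partners of that gene in leukaemia, and the CBX proteins, EED, SUZ12 and JARID2 bind chromatin or build complexes without catalytic activity of their own. SIRT4 is a mitochondrial sirtuin.

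Acetyltransferases such as EP300 and CREBBP put acetyl groups on histone lysines, H3K27ac among them, and the HDAC and sirtuin deacetylases take them off. Polycomb repressive complex 2 (EZH1 or EZH2 with EED and SUZ12) writes H3K27me3, which KDM6A and KDM6B erase and which the chromodomains of CBX2, CBX7 and CBX8 read within Polycomb repressive complex 1. The KMT2 and SETD1 enzymes write methylation on H3K4 and the KDM1 and KDM5 enzymes remove it, while DNMT enzymes methylate cytosine in DNA and TET enzymes oxidise the methyl group. In fat cells, deacetylases and demethylases such as SIRT1, KDM3A and KDM1A are known from work on the brown and beige fat programmes. The proteins are enzymes of these marks, but what was measured here was the marks on the promoters of their genes, not RNA, protein or activity.

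Chromatin came from perirenal fat, the depot around the kidney, of wild-type, untreated merino sheep. The fetal group was sampled at 132 days of gestation (term 150 days), and the lamb group about 80 days after birth. H3K27ac and H3K27me3 were measured in 2 fetuses and 2 lambs each, and H3K4me3 in 2 fetuses and 3 lambs, with animals 1 and 2 of each stage shared by the marks. The growth protocol gives the lambs' age as 89 ± 7 days. The tag VEH ends the lamb titles and no fetal title, so its meaning cannot be told apart from stage, and the labels do not give sex. The comparison asks how these promoters differ between the late fetal and the postnatal depot.

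Values are promoter signals brought to a common scale within each mark (rescaled units), and a promoter is called higher or lower in lambs where limma's Benjamini-Hochberg adjusted p over the whole table was under 0.05. Errors after ± are standard errors unless marked SD. A library held 5061861 to 6257855 promoter reads in H3K27ac, 324662 to 430345 in H3K27me3 and 2476065 to 17541582 in H3K4me3, where lambs 2 and 3 were the shallowest. Fetus 2 of H3K4me3 stood apart, with a TMM factor of 0.869 against 1.032 to 1.043 in the other libraries of that mark. Markers of adipocytes were present in all libraries: all 8 listed (such as ADIPOQ and PLIN1) were in the H3K27ac table, 4 of them lower in lambs. The summed H3K27ac of markers of dividing cells was 3684 to 4043 units in the fetuses and 3089 to 3110 in the lambs (8 of 19 called lower, PLK1 higher). That of brown adipocyte markers was 1375 to 1460 against 867 to 870 (4 of 5 lower), and that of lymphocyte markers 972 to 998 against 1207 to 1375 (3 of 7 higher), and no marker was at 0 in any library. The part of these shifts in the results that follow was not tested, and in whole tissue fewer cells of a type and less signal per cell cannot be told apart.

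At H3K27ac, 7 members were higher in lambs (8.64% of the 81), where 11.4% of all promoters were, and 16 were lower (19.8%), where 17.7% of all promoters were. Both shares lay near those of the whole table, so that the counts set the members apart from other genes in neither direction. The median log2 change of the 81 members was -0.13, and that of all promoters was 0.02. The higher promoters were those of TET1, KDM6A, KAT2B, KDM4C, SMYD5, HDAC7 and DNMT3A. Among the lower ones were KDM3A, SIRT1, JARID2, SIRT4, CBX5, CBX7, EP300, DNMT3B, KAT5, TET2, SETD2, PRMT2, PRMT10, HDAC1 and SIRT2. These counts depended on single libraries: without lamb 1 there were 0 higher and 6 lower, without lamb 2 there were 0 and 9, and without fetus 1 there were 10 and 26. At an unadjusted limma p under 0.05, 10 members were higher and 22 lower with all libraries, 2 and 16 without lamb 1, and 6 and 15 without lamb 2. They depended on scaling too. The deposited scaling gave 0 higher and 36 lower, and library sizes taken from the peak regions gave 12 higher and 7 lower. The median change of all promoters was -0.3 and 0.19 on these 2 scalings. Counts of all promoters under the alternatives are not given here, so the member counts under them do not compare members with other genes. Of the 23 calls, 4 (KDM3A, SIRT1, JARID2 and SIRT4) held in every alternative that used all libraries. The sign of the change held for all 23 in every one of the 12 alternatives. These refit the same libraries, so a kept sign is no added evidence.

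**Figure D1:**
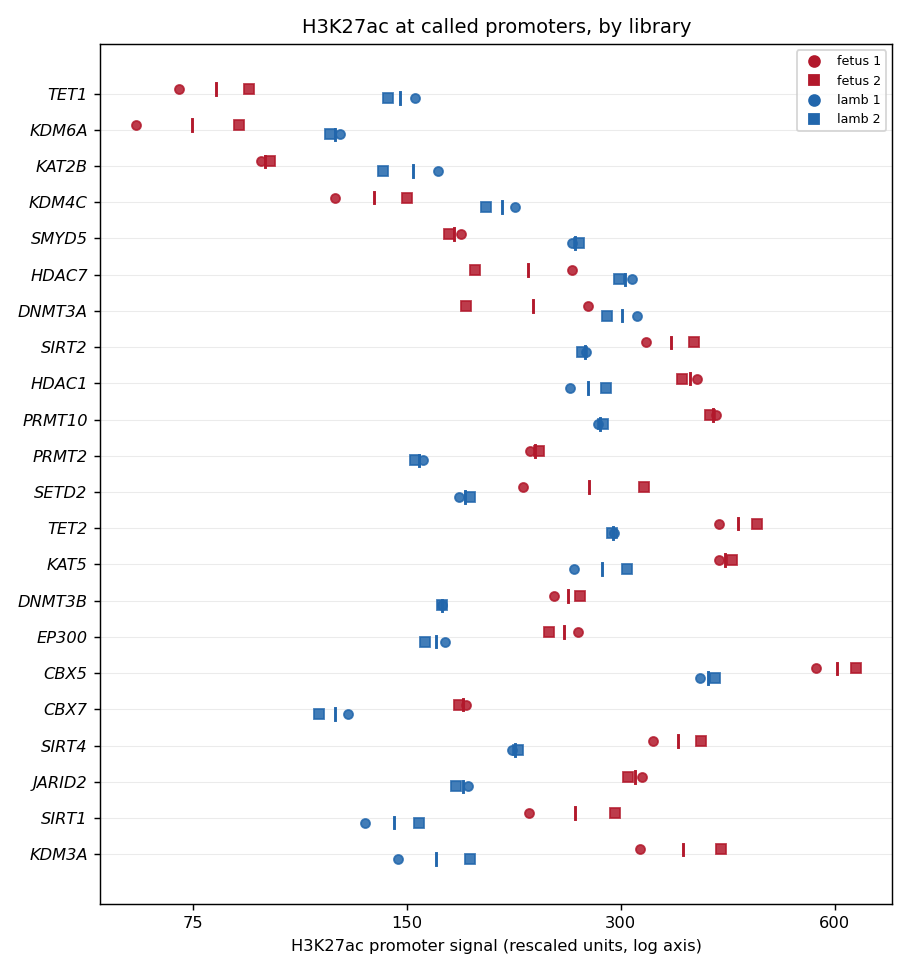
H3K27ac signal (rescaled units, log axis) at members called between stages, ordered by their log2 change; points are libraries (red fetuses, blue lambs) and vertical bars are stage means. At each of these promoters the 2 fetal points and the 2 lamb points do not overlap. They run from TET1 (71.8 and 90.0 against 154 and 141) to KDM3A (319 and 415 against 146 and 184). Members were drawn because they were called, so this separation is no added evidence.

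Changes in H3K27ac ran with the level of the promoter. With the table split by mean signal into 4 level classes of equal size, from 1 (weakest) to 4 (strongest), the median change of all promoters was 0.27, 0.15, -0.02 and -0.32 in classes 1 to 4, and 46.4% of class 4 was called lower against 2.27% of class 1. Of the 16 lower members, 8 were in class 4 and 6 in class 3. Of the 7 higher members, 3 were in class 1. TET1 was at the 12.5th percentile of its table, KDM6A at the 7.35th and KAT2B at the 16.1th. Against this order, CBX7 (28.5th) was weak and lower, and HDAC7 (75.9th) and DNMT3A (76.0th) were strong and higher. With the trend removed by cyclic loess, 13 of the 23 were still called. The 10 that were not had smaller changes under it: CBX5 -0.04, SIRT2 -0.13, HDAC1 -0.18, PRMT10 -0.19, TET2 -0.21 and KAT5 -0.23 among the lower ones, and KDM6A 0.38, KAT2B 0.43, KDM4C 0.47 and TET1 0.59 among the higher ones.

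**Figure D2:**
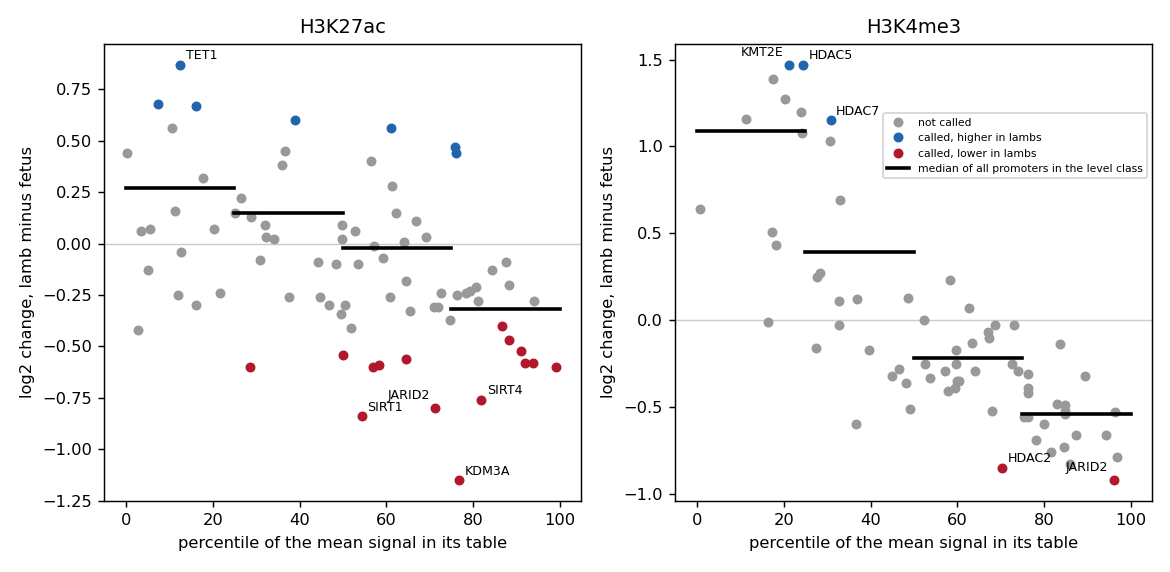
Log2 change (lamb minus fetus) of members against the percentile of their mean signal in the table, for H3K27ac and H3K4me3; black lines are the medians of all promoters in each of the 4 level classes. The class medians run from 0.27 to -0.32 for H3K27ac and from 1.09 to -0.54 for H3K4me3, and CBX7 (-0.60) and KDM3A (-1.15) lie well below the line of their class.

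Among the lysine demethylases, 2 of 14 promoters rose and 1 fell. KDM3A, an eraser of H3K9 methylation that is needed for thermogenic gene expression in brown fat, had the largest H3K27ac change of all members (ENSOARG00000020664). Its H3K27ac was 319 and 415 units in fetuses 1 and 2, and 146 and 184 in lambs 1 and 2. Every fetus lay above both lambs, the log2 change was -1.15 ± 0.16 (2.22-fold higher in fetuses, adjusted p = 8.22e-05), and the call held in all 12 alternatives. KDM4C, an eraser of H3K9 and H3K36 methylation, went the other way, with 119 and 150 units in fetuses and 213 and 194 in lambs (0.60 ± 0.18, adjusted p = 0.0167). KDM6A, the X-linked eraser of H3K27me3, had 62.5 and 87.2 units in fetuses and 121 and 117 in lambs (0.68 ± 0.25, adjusted p = 0.0471). Its relative KDM6B had the weakest H3K27ac of all members (0.333th percentile), at 50.0 and 26.6 against 51.8 and 48.1 units, and was not called (0.44 ± 0.39, adjusted p = 0.41). KDM1A, the flavin-dependent eraser of H3K4 methylation, had 123 and 155 units in fetuses against 173 and 206 in lambs, and was not called (0.45 ± 0.18, adjusted p = 0.0726). The H3K4me3 erasers KDM5A (-0.20 ± 0.12), KDM5B (0.22 ± 0.19) and KDM5C (-0.41 ± 0.15, adjusted p = 0.0528) were not called. Without lamb 1 the adjusted p of KDM4C was 0.321 and that of KDM6A 0.43, and without lamb 2 they were 0.132 and 0.331; without fetus 1 the change of KDM6A was 0.45 (0.0557).

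Of the 4 sirtuins in the H3K27ac table, 3 fell. SIRT1 (ENSOARG00000004826), the NAD-dependent deacetylase of histones and of PPARGC1A, had 223 and 295 units in fetuses and 131 and 156 in lambs (-0.84 ± 0.17, adjusted p = 0.00171). SIRT4 (ENSOARG00000011987) had 333 and 389 units in fetuses and 211 and 215 in lambs (-0.76 ± 0.13, adjusted p = 0.000511). Both calls held in all 12 alternatives, and the lowest fetus lay above the highest lamb at each promoter. SIRT2, a mainly cytoplasmic deacetylase, had 326 and 380 units in fetuses and 268 and 265 in lambs, a smaller difference (-0.40 ± 0.13, adjusted p = 0.0254). Leaving out fetus 2, lamb 1 or lamb 2 gave SIRT2 an adjusted p of 0.0884, 0.181 and 0.167. SIRT6 had 200 and 179 units in fetuses and 191 and 194 in lambs and was not called (0.02 ± 0.15, adjusted p = 0.921).

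Of the 10 zinc-dependent deacetylases (HDAC), 1 rose and 1 fell. HDAC1, a class I enzyme of the NuRD and Sin3 co-repressor complexes, had 384 and 366 units in fetuses and 255 and 286 in lambs (-0.47 ± 0.12, adjusted p = 0.00911). Its partner HDAC2 had 271 and 280 against 208 and 238 units, and was not called (-0.31 ± 0.14, adjusted p = 0.096). HDAC3, another class I enzyme, had 130 and 97.9 units in fetuses and 154 and 129 in lambs, with overlapping stages (0.32 ± 0.21, adjusted p = 0.266). HDAC7, a class IIa enzyme that represses MEF2 targets, had 256 and 187 units in fetuses and 311 and 298 in lambs (0.47 ± 0.15, adjusted p = 0.0247). HDAC1 lost its call without lamb 1 (0.194), and HDAC7 lost it without lamb 1 (0.217) or lamb 2 (0.104) and on the deposited scaling (0.634). Without fetus 2 the change of HDAC7 was 0.26 (adjusted p = 0.11).

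Of the 9 acetyltransferases, 1 rose and 2 fell. EP300, a main writer of H3K27ac, had 261 and 238 units in fetuses and 170 and 159 in lambs (-0.60 ± 0.15, adjusted p = 0.00641). Its paralogue CREBBP had 211 and 214 units in fetuses and 151 and 186 in lambs, which was in the same direction but not called (-0.34 ± 0.16, adjusted p = 0.119); the difference between the paralogues' changes was not tested. KAT5, the catalytic subunit of the TIP60 complex, had 412 and 430 units against 258 and 306 (-0.58 ± 0.13, adjusted p = 0.00263). KAT2B (PCAF) rose from 93.5 and 96.2 units in fetuses to 166 and 139 in lambs (0.67 ± 0.21, adjusted p = 0.0214), whereas its paralogue KAT2A, at 144 and 115 against 136 and 135 units, did not pass the test (0.07 ± 0.20, adjusted p = 0.807). The remaining 4 (KAT6A, KAT6B, KAT7 and KAT8) had changes from -0.25 to -0.08, and none was called. Without lamb 1 the adjusted p was 0.0622 for EP300, 0.0916 for KAT5 and 0.459 for KAT2B, and without lamb 2 it was 0.101 for EP300 and 0.156 for KAT2B.

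In Polycomb repressive complex 2 the accessory subunit JARID2 fell, and none of the 4 subunits EZH1, EZH2, EED and SUZ12 was called. The histone-binding subunit RBBP4, which the naming rule leaves out, was lower (-0.79 ± 0.13, adjusted p = 0.000306) and is given with the partners below. JARID2 (ENSOARG00000012666), which helps recruit the complex to its targets, had 321 and 307 H3K27ac units in fetuses and 183 and 176 in lambs (-0.80 ± 0.13, adjusted p = 0.000394). The stages were 1.74-fold apart, and the call held in all 12 alternatives. EZH2, the main H3K27 methyltransferase, had 207 and 242 units in fetuses and 246 and 236 in lambs (0.11 ± 0.14, adjusted p = 0.587). EZH1 (0.01 ± 0.14, adjusted p = 0.964) and EED (0.09 ± 0.17, adjusted p = 0.707) also overlapped between stages. SUZ12 had 233 and 238 units against 189 and 204 and was not called (-0.26 ± 0.14, adjusted p = 0.169). A missed threshold does not show that these promoters were equal, since their standard errors were 0.14 to 0.17 on the log2 scale.

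Among the CBX proteins of Polycomb repressive complex 1, CBX7 had 182 and 178 H3K27ac units in fetuses and 124 and 113 in lambs (-0.60 ± 0.18, adjusted p = 0.0192). CBX2 (-0.25 ± 0.21, adjusted p = 0.385) and CBX8 (0.06 ± 0.27, adjusted p = 0.883) were not called, and CBX8 was at the 3.53th percentile. CBX5, which encodes heterochromatin protein HP1 alpha and reads H3K9 methylation rather than H3K27me3, was among the strongest promoters of the table (99.2th percentile), with 565 and 644 units in fetuses and 388 and 407 in lambs (-0.60 ± 0.12, adjusted p = 0.00145). The call at CBX5 held with any 1 library left out (adjusted p up to 0.0148), but the change lay close to the trend for strong promoters and was lost under cyclic loess (adjusted p = 0.802). CBX7 lost its call without lamb 1 (0.176) or lamb 2 (0.242).

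Both DNA methylation families held a promoter that rose and another that fell. The maintenance enzyme DNMT1 had 117 and 114 units in fetuses and 101 and 125 in lambs (-0.04 ± 0.21, adjusted p = 0.911). The de novo enzyme DNMT3B fell from 242 and 263 units in fetuses to 168 in both lambs (-0.59 ± 0.15, adjusted p = 0.00639), and DNMT3A had 270 and 182 units in fetuses and 316 and 287 in lambs, just past the threshold (0.44 ± 0.16, adjusted p = 0.0488). Fetus 1 came close to the lambs at DNMT3A. TET1 rose from 71.8 and 90.0 units to 154 and 141 (0.87 ± 0.22, adjusted p = 0.00785), the largest H3K27ac increase among the members, while TET2 fell from 412 and 466 to 294 and 292 (-0.58 ± 0.12, adjusted p = 0.0021). TET3 was not called (0.16 ± 0.23, adjusted p = 0.625). TET2 kept its call with any 1 library left out (adjusted p up to 0.0182) and lost it under cyclic loess (0.215). DNMT3B and TET1 lost theirs without lamb 1 (0.0932 and 0.256) or lamb 2 (0.0714 and 0.131), and DNMT3A without lamb 1 (0.331) or lamb 2 (0.0964). Without fetus 2 the change of DNMT3A itself was 0.17 (adjusted p = 0.32).

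Of the 17 lysine methyltransferases (KMT2, SETD and SMYD genes), 1 rose and 1 fell, and 13 had a negative change. SETD2, which trimethylates H3K36 along transcribed genes, had 219 and 324 units in fetuses and 178 and 184 in lambs (-0.56 ± 0.17, adjusted p = 0.0203), with the fetuses far apart. SMYD5 had 179 and 172 units in fetuses and 256 and 262 in lambs (0.56 ± 0.14, adjusted p = 0.00709). The H3K4 methyltransferases KMT2A (0.07 ± 0.26) and KMT2D (0.06 ± 0.17) and their relative KMT2E (0.03 ± 0.16) were not called, nor were SETDB1, an H3K9 methyltransferase (-0.30 ± 0.20), SMYD3 (-0.13 ± 0.25) or SMYD4 (-0.09 ± 0.13). Without lamb 1 the adjusted p was 0.118 for SETD2 and 0.135 for SMYD5, without lamb 2 it was 0.0641 and 0.138, and without fetus 2 the change of SETD2 was -0.26 (0.15). Of the 7 arginine methyltransferases, 2 fell. PRMT2, a coactivator of nuclear receptors, had 224 and 230 units in fetuses and 158 and 154 in lambs (-0.54 ± 0.15, adjusted p = 0.0139). PRMT10, an older symbol of PRMT9, had 408 and 401 units against 279 and 283 (-0.52 ± 0.12, adjusted p = 0.0036). The main enzymes of asymmetric and symmetric arginine dimethylation, PRMT1 (-0.37 ± 0.14, adjusted p = 0.0568) and PRMT5 (-0.07 ± 0.14, adjusted p = 0.765), were not called. PRMT2 lost its call without lamb 1 (0.157) or lamb 2 (0.161), and PRMT10 without lamb 1 (0.0534). Of the 4 MLLT genes none was called (1 higher and 1 lower at an unadjusted limma p under 0.05), and MLLT6 lay just outside the threshold, at 183 and 172 units against 241 and 227 (0.40 ± 0.15, adjusted p = 0.0502).

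Ratios between related promoters within a library do not depend on a scaling factor per library. They do carry the trend of change with level given above where a weaker promoter is set over a stronger one. TET1 (12.5th percentile) over TET2 (93.8th) is such a pair. So are KAT2B (16.1th) over EP300 (57.0th), KDM4C (39.0th) over KDM3A (76.8th), HDAC7 (75.9th) over HDAC1 (88.4th) and KDM6A (7.35th) over EZH2 (66.9th). Only DNMT3A (76.0th) over DNMT3B (58.4th) is not. The part of that trend in the ratios was not tested. The pairs given here were chosen after their values were seen, and are a description without a test. The H3K27ac ratio of TET1 to TET2 was 0.174 and 0.193 in fetuses and 0.523 and 0.483 in lambs, so that TET2 remained the stronger in all 4 libraries. The ratio of DNMT3A to DNMT3B was 1.11 and 0.69 in fetuses and 1.88 and 1.71 in lambs. The ratio of KAT2B to EP300 went from 0.359 and 0.404 to 0.978 and 0.872. These are ratios of promoter signal, not of enzyme amount. For the erasers KDM4C and KDM3A the ratio was 0.373 and 0.362 in fetuses and 1.46 and 1.06 in lambs, and for HDAC7 and HDAC1 it was 0.665 and 0.512 against 1.22 and 1.04. Within a library the stronger member of each of these 2 pairs differed between the stages. The ratio of the eraser KDM6A to the writer EZH2 was 0.302 and 0.361 in fetuses and 0.491 and 0.493 in lambs.

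**Figure D3:**
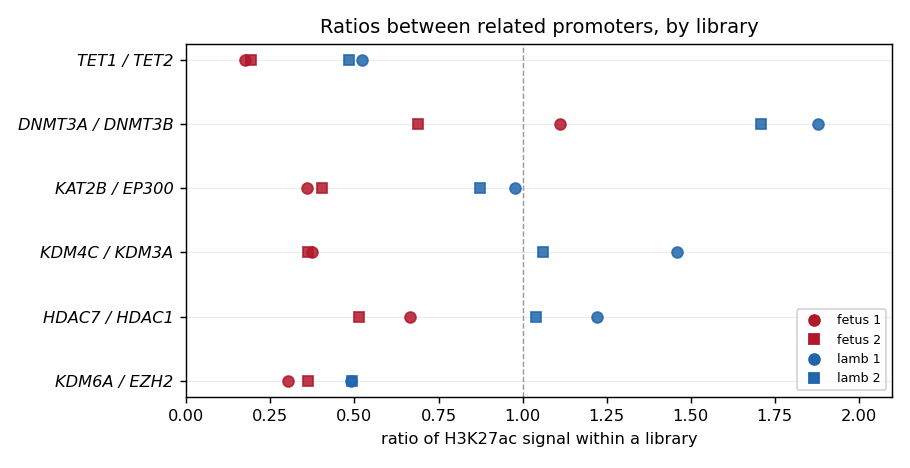
Ratio of H3K27ac signal between 2 related promoters within each library (red fetuses, blue lambs; the dashed line marks equal signal). In the pairs KDM4C to KDM3A and HDAC7 to HDAC1 both fetuses lie below 1 and both lambs above it. In all 6 pairs, which were chosen after their values were seen, the fetal points lie below the lamb points. All pairs but DNMT3A to DNMT3B set a weaker promoter over a stronger one.

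At H3K4me3, 3 members were higher in lambs (4.23% of the 71), where 8.33% of all promoters were, and 2 were lower (2.82%), where 1.9% of all promoters were. The median log2 change was -0.25 for the members and 0.00 for all promoters. In this mark the summed signal of macrophage markers was 1089 to 1423 units in fetuses and 1775 to 2050 in lambs (2 of 5 called higher, C1QA and CD68). That of lymphocyte markers was 511 to 764 against 976 to 1791 (2 of 6 higher), and that of dividing cell markers was 8900 to 13938 against 7588 to 8864 (2 of 19 lower). Adipocyte markers summed to 4399 to 5539 units in fetuses against 3162 to 3461 in lambs (1 of 8 lower, PLIN1). Brown adipocyte markers summed to 2664 to 2694 against 1588 to 1832 (2 of 5 lower). Of the other lists, 1 of 5 stromal markers was lower, and no endothelial or adrenal marker was called. The part of these shifts in the calls was not tested. KMT2E, a KMT2 family member that reads H3K4me3 rather than writing it, had 62.5 and 111 units in fetuses 1 and 2, and 225, 220 and 255 in lambs 1, 2 and 3 (1.47 ± 0.45, adjusted p = 0.0321). The class IIa deacetylase HDAC5 had 154 and 49.2 units in fetuses and 181, 297 and 266 in lambs (1.47 ± 0.46, adjusted p = 0.0365), and its class mate HDAC7 had 182 and 86.9 against 250, 295 and 301 (1.15 ± 0.39, adjusted p = 0.049). At all 3 promoters both fetuses lay below every lamb, but fetus 1 came close to lamb 1 at HDAC5. The class I deacetylase HDAC2 had 711 and 894 units in fetuses and 529, 398 and 411 in lambs (-0.85 ± 0.27, adjusted p = 0.0366). JARID2 had 1119 and 2094 units in fetuses and 967, 671 and 808 in lambs (-0.92 ± 0.31, adjusted p = 0.0472), with the fetuses further from each other than fetus 1 was from the lambs.

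**Figure D4:**
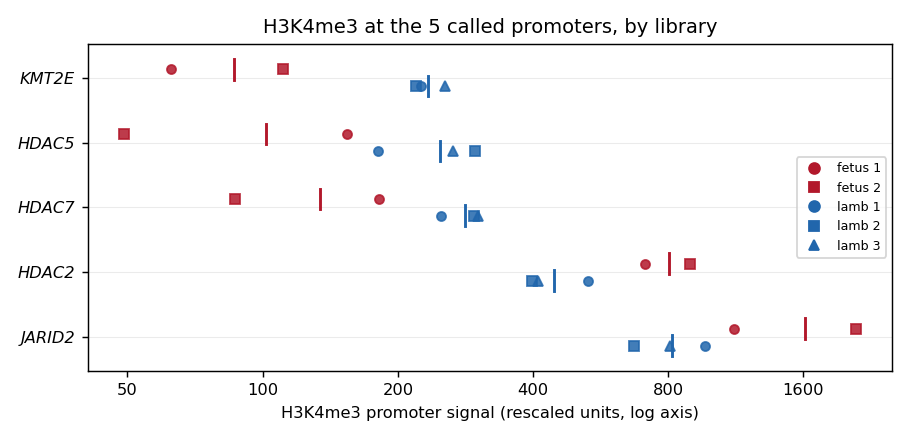
H3K4me3 signal (rescaled units, log axis) at the 5 members called between stages; points are libraries (red fetuses, blue lambs) and vertical bars are stage means. The 2 fetuses lie apart at HDAC5 (154 and 49.2), HDAC7 (182 and 86.9) and JARID2 (1119 and 2094), yet no fetal point lies among the lamb points. Members were drawn because they were called, so this separation is no added evidence.

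None of the 5 H3K4me3 calls held throughout. They depended on the shallow libraries and on fetus 2: leaving out lamb 2, lamb 3 or both gave 0 calls in either direction (5 higher and 2 lower at an unadjusted limma p under 0.05 without lamb 2, 3 and 3 without lamb 3), leaving out fetus 2 gave 2 higher and 0 lower (KMT2E, and TET2, which is not among the 5), and leaving out fetus 1 gave 7 higher and 26 lower. Without lamb 2 the adjusted p ran from 0.199 (KMT2E) to 0.367 (JARID2) and without lamb 3 from 0.446 to 0.453, with changes of similar size (KMT2E 1.52 and 1.41, HDAC5 1.32 and 1.40, HDAC2 -0.77 and -0.80), and without lamb 1 the adjusted p of HDAC5, HDAC7 and JARID2 was 0.0617, 0.0685 and 0.0625. Without fetus 2 the changes themselves were smaller: HDAC5 0.65 (adjusted p = 0.361), HDAC7 0.63 (0.328), JARID2 -0.47 (0.301) and HDAC2 -0.68 (0.119). The trend with level was steeper than for H3K27ac, with a median change of 1.09 over all promoters of class 1, where KMT2E and HDAC5 were, 0.39 in class 2, where HDAC7 was, -0.22 in class 3, where HDAC2 was, and -0.54 in class 4, where JARID2 was. Under cyclic loess 0 promoters of the table were called by limma, and 0 members were higher and 4 lower at an unadjusted p under 0.05. The deposited scaling gave 0 higher and 43 lower members, and peak region library sizes gave 0 and 29. Peak region library sizes put the median change of all promoters at -0.56, and the deposited scaling lowers it to -1.28. Increases smaller than this last shift, such as that of HDAC7, become negative on the deposited scaling by construction (-0.13).

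CREBBP, EP300 and TET2 were among the members that missed the H3K4me3 threshold. CREBBP had 123 and 66.6 units in fetuses and 200, 222 and 240 in lambs (1.27 ± 0.45, adjusted p = 0.0555), while EP300 had 748 and 1245 against 678, 529 and 511 (-0.76 ± 0.28, adjusted p = 0.0591). TET2 had 110 and 163 units in fetuses and 215, 302 and 320 in lambs (1.03 ± 0.38, adjusted p = 0.064), opposite in sign to its H3K27ac. The H3K4 methyltransferases KMT2A (-0.25 ± 0.27, adjusted p = 0.478) and KMT2D (-0.66 ± 0.28, adjusted p = 0.0905) and the H3K4 demethylases KDM5A (-0.53 ± 0.31), KDM5B (-0.17 ± 0.33) and KDM5C (-0.56 ± 0.27) were not called. DNMT1 (0.12 ± 0.33), DNMT3A (0.69 ± 0.38), DNMT3B (-0.60 ± 0.34), TET3 (-0.16 ± 0.39), SUZ12 (-0.49 ± 0.28), CBX2 (-0.32 ± 0.30), HDAC1 (-0.35 ± 0.27), HDAC3 (-0.31 ± 0.27) and SIRT1 (-0.48 ± 0.30) were not called either.

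Over the 68 members in both tables, 40 had negative changes in H3K27ac and in H3K4me3, and 8 had positive changes in both. A further 9 were negative in H3K27ac alone and 10 in H3K4me3 alone, and HDAC10 had 0.00 in H3K4me3. Of all promoters, 6378 of 13222 were negative in H3K27ac and 6442 of 12922 in H3K4me3. The joint signs were not counted over all genes, so these counts do not set the members apart. JARID2 was called lower in both marks and HDAC7 higher in both. The 2 marks ranked some members very differently. TET2 was at the 93.8th percentile of H3K27ac and the 30.6th of H3K4me3, and DNMT3A at the 76.0th and 32.9th. KMT2A was at the 5.58th percentile of H3K27ac and the 72.6th of H3K4me3, and HDAC3 at the 17.8th and 76.4th. A gap of over 40 percentile points in favour of H3K27ac was found at 8 members (11.8%) against 8.41% of all 10103 genes in both tables, and a gap in favour of H3K4me3 at 6 members (8.82%) against 7.13%, so that such gaps were about as common among the members as elsewhere. The sources used here do not state how wide a promoter window was counted.

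H3K27me3 was present at few members: 8 of 85 (9.41%) were in its table, against 34.3% of all gene names, and 63 members (74.1%, against 44.4% of all names) were in the H3K27ac and H3K4me3 tables only. The writers of the mark, EZH1 and EZH2, and its erasers KDM6A and KDM6B were not among the 8. Of the 8 members, 1 was higher in lambs, where 4.42% of all promoters were, and 0 were lower, where 8.83% were (2 higher and 1 lower at an unadjusted limma p under 0.05). SIRT6 (ENSOARG00000010598), a chromatin-bound deacetylase of H3K9 and H3K56, had 101 and 90.9 units in fetuses and 190 and 210 in lambs, from 30 and 27 reads against 58 and 51. Both lambs lay far above both fetuses, with a log2 change of 1.05 ± 0.32 (2.08-fold, adjusted p = 0.0343). At the same promoter H3K27ac was not called, as given above, and H3K4me3 was 663 and 768 units in fetuses and 610, 534 and 605 in lambs (-0.29 ± 0.26, adjusted p = 0.401). The call at SIRT6 was lost without fetus 1 (adjusted p = 0.215), fetus 2 (0.332) or lamb 2 (0.14), on the deposited scaling (0.083) and under cyclic loess (0.145), always with the same sign.

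**Figure D5:**
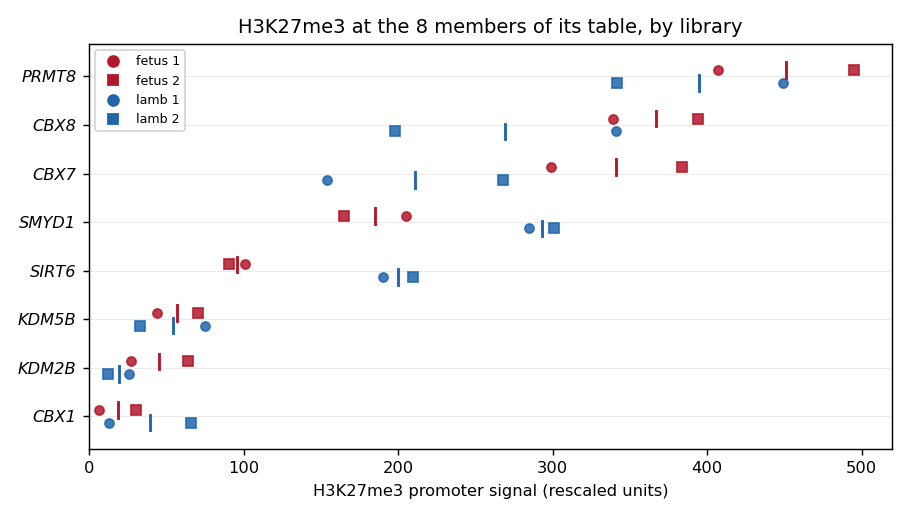
H3K27me3 signal (rescaled units) at the 8 members in its table, ordered by level; points are libraries (red fetuses, blue lambs) and vertical bars are stage means. PRMT8, CBX8 and CBX7 carry the most signal, and SIRT6 and SMYD1 are the 2 promoters among the 8 where both lambs lie above both fetuses.

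The strongest H3K27me3 among the members was at PRMT8, an arginine methyltransferase known from the brain, with 407 and 495 units in fetuses and 449 and 342 in lambs (89.6th percentile, -0.19 ± 0.21, adjusted p = 0.557). Its H3K4me3 was weak (17.5th percentile) and it was absent from the H3K27ac table. SMYD1, a methyltransferase of striated muscle, was in the H3K27me3 table alone, with 205 and 165 units in fetuses and 285 and 301 in lambs, which did not pass the test (0.67 ± 0.26, adjusted p = 0.0886). The Polycomb readers CBX7 and CBX8 carried H3K27me3 together with the other 2 marks. CBX7 had 299 and 384 units in fetuses and 154 and 268 in lambs (-0.74 ± 0.28, adjusted p = 0.0783), so that its H3K27me3 and its H3K27ac had changes of the same sign. CBX8 had 339 and 394 units in fetuses and 341 and 198 in lambs, overlapping between stages (-0.49 ± 0.26, adjusted p = 0.203). Without lamb 1, whose value is the higher of the 2 lambs, CBX8 was called lower (-0.89, adjusted p = 0.0034). KDM2B, KDM5B and CBX1 were near the bottom of the table, at the 0.253th, 3.76th and 0.0789th percentiles, with 3 to 19, 8 to 23 and 2 to 16 reads per library, and their changes of -1.16 ± 0.88, -0.15 ± 0.59 and 0.98 ± 1.13 could not be told from 0 at this depth.

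Partners of the members that the naming rule leaves out were followed in 8 lists of 101 genes, chosen by their known complexes. In H3K27ac, 81 of them were measured, 10 were higher (12.3%) and 17 lower (21.0%) in lambs, with a median change of 0.01. These shares were near the 11.4% and 17.7% of all promoters, so the counts by list are a description. Of the 9 genes measured in the list around Polycomb repressive complex 2, which also holds the ASXL and BAP1 genes of a separate H2A deubiquitinase, the accessory subunit PHF19 and the deubiquitinase subunit ASXL1 were higher. The accessory subunit MTF2 (380 and 473 units in fetuses, 250 and 277 in lambs, -0.68 ± 0.13) and the histone-binding subunit RBBP4 (442 and 534 against 268 and 294, -0.79 ± 0.13) were lower. In complex 1, PCGF2 was higher and PHC1 and the ubiquitin ligase RNF2 (292 and 327 against 226 and 237, -0.41 ± 0.13) were lower, of 10. The deacetylase complexes had 3 of 16 higher, the NuRD subunits CHD4 and GATAD2A among them, and 4 lower (RCOR3, SAP30, SIRT3 and TBL1XR1). The acetyltransferase complexes had 1 of 16 higher (BRD1) and 4 lower, the nuclear receptor coactivator NCOA1 among them (407 and 555 units in fetuses, 313 and 309 in lambs, -0.61 ± 0.14). In the list of subunits from the various KMT2 and SETD1 complexes, 0 of 6 were higher and 2 lower, CXXC1 and HCFC1. Methyltransferases of H3K9, H3K36, H3K79 and H4K20 outside the rule had DOT1L higher (115 and 101 units against 172 and 154) and ASH1L lower (356 and 365 against 247 and 260), of 9. The JmjC proteins had HR and PHF2 higher of 7, and the partners of DNA methylation had GADD45A and UHRF2 lower of 8. In H3K4me3, limma called 1 of 66 partners higher (GATAD2A) and 0 lower (6 and 12 at an unadjusted p under 0.05), and in H3K27me3, 2 were measured and neither was called (0 and 1).

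In the authors' deposited table the false discovery rate was under 0.05 for 22 of the 23 called H3K27ac members, DNMT3A being the exception at 0.0686, and also for KDM4B (0.0494), KDM5C (0.0459) and MLLT6 (0.0408). In the authors' deposited table of H3K4me3 it was 0.0206 for HDAC2, 0.0286 for KMT2E and 0.0368 for JARID2, and 0.0762 and 0.0689 for HDAC5 and HDAC7. For H3K27me3 at SIRT6 the authors' deposited table gives 0.0154. These are tests on the same libraries and are no independent evidence.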

How the data were processed

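Native chromatin immunoprecipitated for H3K27ac, H3K4me3 or H3K27me3 was sequenced from 13 libraries of sheep perirenal fat. The 2 pooled inputs have no columns, so none was subtracted here. Per the labels, mapping to Oar_v3.1 used CLC Genomics Workbench 7.0. Of bedtools 2.19.0, edgeR and MACS the submitters' processing notes give names but no roles. The authors deposited read counts per peak region, used here for depth and 1 scaling alternative. The promoter values are a signal that the authors scaled per library: at least 99.98% were whole multiples (within 0.02 reads) of the value of 1 read. Each promoter reached at least 50.2 units in some library, so weaker ones are not in the tables. The deposited tables also hold, per the file headers, the authors' fold change per promoter, a signed score that is negative where lambs are lower, with p-values; the headers of fold and p-value are exchanged in the H3K27me3 promoter table.

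Each promoter column was divided by its total times its TMM factor (edgeR 4.0.16), which replaces the deposited scaling, put on the scale log2(value + 1) and then tested by limma 3.58.1 (trend), stage as the only term, lamb minus fetus, Benjamini-Hochberg over each whole table. Fold changes on this scale understate low promoters. The test was checked only on simulated reads that had the same spread for every promoter, no trend with level and no outlying library. That check does not bear on how the calls fare under the replicate differences seen here. Replicate libraries differed by more than sampling noise. Chi-square per degree of freedom on peak counts ran from 2.1 between the H3K27me3 fetuses to 112 between the H3K4me3 fetuses. An exact 2-sided permutation test on the ranks of 1 value cannot go below p = 0.333 with 2 against 2 libraries, or 0.2 with 2 against 3. The limma p-values measure only the spread between these animals.

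Members and lists were chosen with earlier results of these data known. Text names called members, a list of core writers, erasers and Polycomb subunits, and all 8 H3K27me3 members; a few genes that enter the counts are not reported here by name or drawn. Symbols were used as the tables give them, or by a unique synonym in RefSeq's ARS-UI_Ramb_v3.0 gene table, from which no coordinates were taken. Alternatives were other scalings, cyclic loess, a pseudocount of 5, a level minimum of 100 units, a replicate block and leaving out libraries. Cell type lists were adipocyte, brown adipocyte, lymphocyte, macrophage, endothelial, stromal, adrenal and dividing cells. Of the lists not described with the results, H3K27ac was lower at 1 of 4 macrophage, 3 of 7 endothelial and 3 of 6 stromal markers, and higher at 2 stromal markers and 1 of 3 adrenal markers.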

Additional observations from a re-analysis of the deposited data

How the results depend on the processing

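Counts of called members moved with the scaling and with single libraries. Counts of all promoters under the same settings are not given here, so these numbers do not compare members with other genes. The median log2 change of all promoters was -0.30 for H3K27ac and -1.28 for H3K4me3 on the deposited scaling, 0.19, -0.56 and 0.17 (H3K27ac, H3K4me3, H3K27me3) with peak region library sizes, and 0.11, 0.13 and 0.13 with column totals, so directions are relative to the typical promoter. Against 7 higher and 16 lower H3K27ac members, the deposited scaling gave 0 and 36, peak region sizes 12 and 7, cyclic loess 3 higher, and leaving out 1 library gave 0 to 10 higher and 6 to 26 lower. Against 3 higher and 2 lower H3K4me3 members, the deposited scaling gave 0 and 43, peak region sizes 0 and 29, cyclic loess 0 and 0, column totals and median-of-ratios factors 1 lower each, leaving out lambs 2 and 3 together 0 and 0, and leaving out 1 library 0 to 7 higher and 0 to 26 lower. Against 1 higher and 0 lower H3K27me3 members, the deposited scaling and cyclic loess gave 0 higher, and leaving out 1 library gave 0 to 1 higher and 0 to 1 lower. The cause was not tested. Because of that median of -1.28, small H3K4me3 increases turn negative on the deposited scaling by construction. Of the genes named by rule, those that did so and were called on either scaling are DNMT1 (-1.16), HDAC7 (-0.13), KAT2A (-1.03), KDM6B (-1.01) and SMYD3 (-1.17). The pseudocount of 5 and the level minimum left the counts of members within 1.5 times.

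Replicate numbers name different animals and do not pair them. Same-numbered libraries' deviations correlated at 0.277 (H3K27ac), -0.394 (H3K4me3) and 0.099 (H3K27me3), and what these values reflect was not tested. With the replicate block all 23 H3K27ac calls stayed and 8 more members were called. H3K4me3 (lamb 3 left out) had 0 higher and 0 lower, and H3K27me3 had 1 lower, CBX7 (limma adjusted p = 0.0321). Count tests on whole reads recovered from the promoter tables were planned with edgeR and DESeq2 and not run, because the deposited values are scaled. No member had more than 1 promoter, so counting symbols once changed nothing. With 43 to 54 reads at the median promoter, depth limits H3K27me3 most.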
